A study of Homo sapiens with 7 samples.

Results

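The sites described here are positions where O-GlcNAcase (OGA) was called on chromatin together with SPT5 and TRIM28, with no called peak of RNA polymerase II (Pol II). The lack of a called peak does not show that Pol II was absent. A site was an OGA peak on chromosomes 1 to 22 that shared at least 1 bp with an SPT5 peak and with a TRIM28 peak, and no base with a Pol II or an O-GlcNAc peak. The sites were thus chosen by the overlap of called peaks in the 5 lists. Of the 2503 OGA peaks on these chromosomes, 583 met this rule (23.3%, 95% Wilson interval 21.7% to 25.0%). The peaks came from ChIP-seq, in which DNA pulled down with an antibody from cross-linked chromatin is sequenced. The cells were BJAB, a human lymphoma B-cell line (Burkitt's, per the labels) at multiple passages, with no treatment named. Each target had 1 library, made with the antibody 8WG16 for Pol II, with antibodies to SPT5, TRIM28/TIF1b and OGA/NCOAT, and with RL2 for O-GlcNAc. With 1 library per target there were no replicates, so intervals and tests below cover counting error over the peaks of these lists only. A peak that is low because few cells carry the protein cannot be told apart from one that is low in every cell.

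O-GlcNAc is a single sugar that the transferase OGT puts on serine and threonine side chains, and OGA is the enzyme that takes it off. SPT5 is a subunit of DSIF, which binds the early elongation complex, contributes to pausing near the promoter and later moves with Pol II through the gene. TRIM28, also called KAP1 or TIF1b, is a co-repressor brought to DNA by KRAB-type zinc finger factors, where it gathers heterochromatin proteins, and it has also been placed at paused promoters. The series title couples OGA to SPT5 and TRIM28 as pausing factors of Pol II, and the sites below are those where the 3 proteins were called with no Pol II peak under the OGA peak.

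In median height and width the 583 sites were close to the OGA list as a whole. Their OGA fold enrichment over the authors' background ran from 1.65 to 8.52, with a median of 3.35 (95% interval of the median 3.25 to 3.44), against 3.33 (3.29 to 3.37) over all OGA peaks. The highest OGA peak of the whole list on these chromosomes reached 26.0, well above the highest site. OGA peaks with SPT5, TRIM28 and Pol II but no O-GlcNAc, 584 in number, had a median of 3.02 (2.94 to 3.07), and the 540 with TRIM28 alone had 3.86 (3.70 to 3.99). The 506 OGA peaks with all 4 other targets had a median of 3.20 (3.09 to 3.33) and reached 20.0. By median OGA height the sites therefore lay between the OGA peaks with Pol II and those with TRIM28 alone. At the 90th percentile this order did not hold for the peaks with all 4 other targets, which stood at 8.07. There the sites stood at 4.83, the peaks with TRIM28 alone at 5.57 and those with Pol II but no O-GlcNAc at 4.07. The OGA peaks at the sites were 169 to 943 bp wide, with a median of 233 bp (229 to 241 bp), close to the 236 bp of all OGA peaks. Height and width bear on whether 2 peaks overlap, and overlap chose the sites, so these values are descriptions with no test.

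TRIM28 stood somewhat above the middle of its list at the sites, and SPT5 was low in its own. TRIM28 fold enrichment ran from 1.68 to 20.0 with a median of 3.93 (3.76 to 4.08), at a median percentile of 62.9 in the TRIM28 list. Over all OGA peaks with TRIM28 the median percentile was 58.3, so the sites were only slightly higher. SPT5 fold enrichment ran from 1.48 to 19.6 with a median of 2.85 (2.78 to 2.95), at a median percentile of 29.9 in the SPT5 list. The lowest 25% of SPT5 peaks supplied the SPT5 peak at 254 sites (43.6%, interval 39.6% to 47.6%), whereas the lowest 25% of TRIM28 peaks supplied the TRIM28 peak at 101 (17.3%, 14.5% to 20.6%). Where Pol II was also under the OGA peak, the median SPT5 fold enrichment was 6.55 (6.04 to 7.01) and its percentile 83.0, and with all 4 other targets these were 9.30 and 91.0. The TRIM28 medians of these sets lay closer together, at 3.73 and 3.34, and stood at 4.16 (3.97 to 4.31) where TRIM28 was the sole companion of OGA. Low SPT5 was shared with SPT5 and TRIM28 sites that lacked OGA, Pol II and O-GlcNAc. At the 6008 of these the median SPT5 fold enrichment was 3.10 (3.07 to 3.13) and the median SPT5 width 417.5 bp (410.0 to 426 bp), against a median fold enrichment of 3.30 over the whole SPT5 list.

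**Figure D1:**
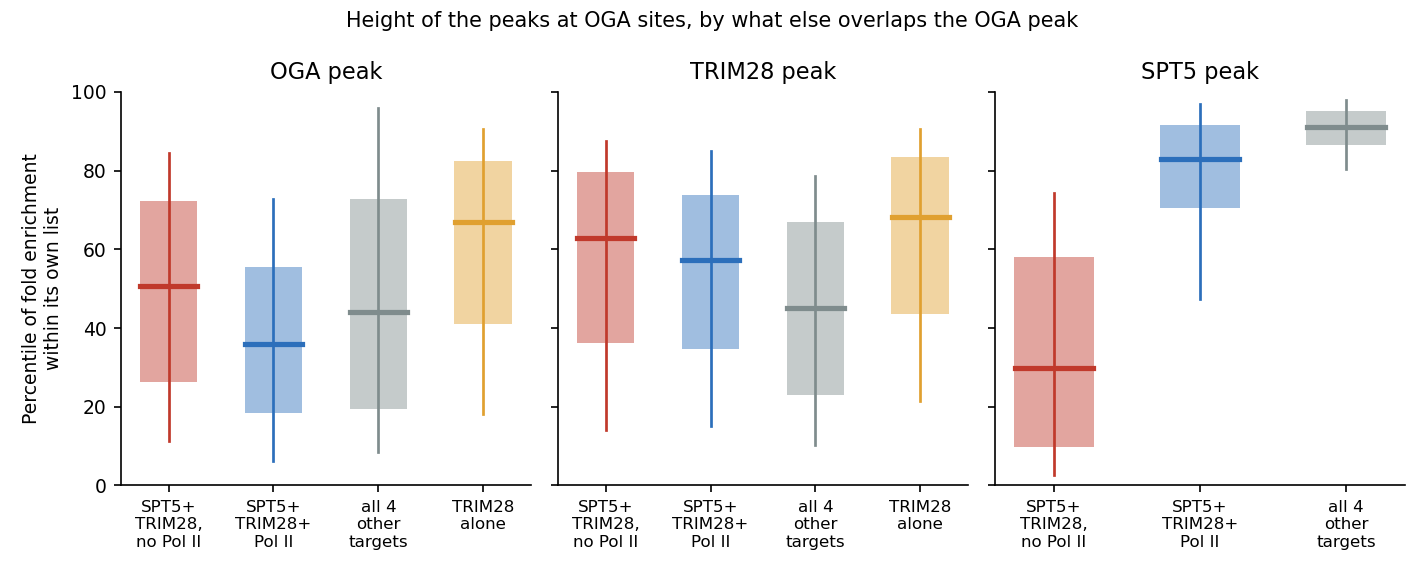
Percentile of fold enrichment (y axis, 0 to 100, each peak ranked within its own list) of the OGA, TRIM28 and SPT5 peaks at 4 kinds of OGA site (x axis). Thick lines are medians, boxes run from the 25th to the 75th percentile of the sites and thin lines from the 10th to the 90th. SPT5 stood at a median percentile of 29.9 at the sites without Pol II, against 83.0 with Pol II and 91.0 with all 4 other targets, while the TRIM28 medians were 62.9, 57.3 and 45.0.

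The SPT5 peaks were shorter than those at OGA peaks with Pol II, though not short for the SPT5 list, whose median width was 413 bp. Their widths ran from 195 to 23653 bp with a median of 451 bp (424 to 482 bp), against 1294 bp (1173 to 1396 bp) at OGA peaks with SPT5, TRIM28 and Pol II. SPT5 peaks wider than 1 kb were present at 86 sites (14.8%) and at 352 of the 584 with Pol II (60.3%). TRIM28 peaks at the sites ran from 189 to 2053 bp, with a median of 442 bp (425 to 460 bp). SPT5 was the wider of the 2 companions at 302 sites (51.8%, 47.7% to 55.8%), compared with 521 of 584 (89.2%) where Pol II was present. The OGA peak lay wholly inside the TRIM28 peak at 446 sites (76.5%) and wholly inside the SPT5 peak at 357 (61.2%). The OGA summit itself was inside the TRIM28 peak at 577 sites and inside the SPT5 peak at 546. Nearly every site had companions of its own: 5 sites overlapped more than 1 SPT5 peak, 2 overlapped more than 1 TRIM28 peak, and the 583 sites drew on 582 SPT5 and 581 TRIM28 peaks.

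The 3 summits lay close together, and TRIM28 was the nearer companion of OGA. The nearest TRIM28 summit was a median of 38 bp from the OGA summit (35 to 43 bp; 10% of sites within 6 bp and 90% within 123 bp). The nearest SPT5 summit was a median of 65 bp away (57 to 69 bp; 10% within 11.2 bp and 90% within 238 bp). TRIM28 was the nearer at 379 sites, SPT5 at 201, and 3 were tied, a share of 65.0% for TRIM28 (61.1% to 68.8%; two-sided exact sign test over sites, p = 1.3e-13, Benjamini-Hochberg adjusted over 11 sign tests 1.4e-12). Over all 1699 OGA peaks with SPT5 and TRIM28, with or without Pol II, the TRIM28 summit was the nearer at 70.3%, so the share at the sites was no higher than in the list at large. It was below the 75.2% of OGA peaks with SPT5, TRIM28 and Pol II by 10.2 percentage points (sites minus those peaks -10.2, 95% Newcombe interval -15.3 to -4.91). A narrow peak keeps its summit close to any peak it overlaps. At the 281 sites where the SPT5 peak was no wider than the TRIM28 peak, TRIM28 was the nearer at 170 and SPT5 at 109, with 2 ties (60.5% for TRIM28, 54.7% to 66.0%). At the 302 sites where it was wider, TRIM28 was the nearer at 209 (69.2%, 63.8% to 74.1%). By distance to the nearest Pol II summit, TRIM28 was the nearer at 78.7% of sites within 1 kb and 70.8% at 1 to 5 kb. At 5 to 20 kb the share was 56.9% (48.8% to 64.7%), an interval that includes an even split. Beyond 20 kb it was 64.7%. The part of peak width or height in the summit order was not tested.

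**Figure D2:**
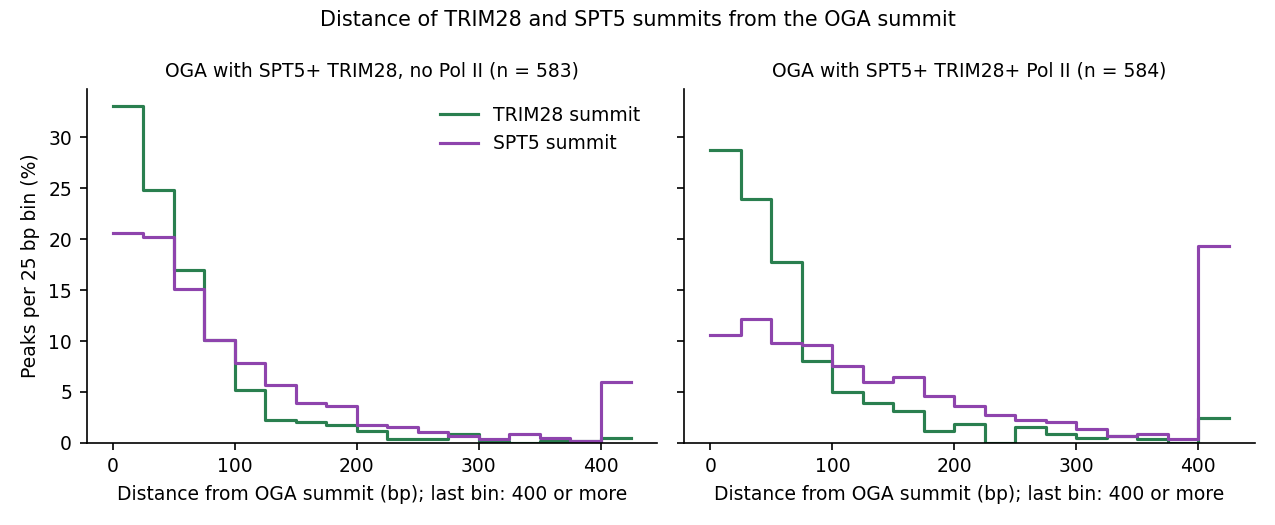
Share of OGA peaks (y axis, percent per bin of 25 bp) by distance of the nearest TRIM28 and SPT5 summit from the OGA summit (x axis, bp, with 400 bp or more in the last bin), at the 583 sites without Pol II and at the 584 OGA peaks with Pol II, SPT5 and TRIM28. The median SPT5 distance was 65 bp in the left panel and 126 bp in the right, and the TRIM28 medians were 38 and 46 bp.

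All 3 summits fell within 100 bp at 298 sites (51.1%, 47.1% to 55.2%), within 50 bp at 129 and within 200 bp at 482. The share within 100 bp was 33.8% over all OGA peaks with SPT5 and TRIM28. It was 27.4% where Pol II was present without O-GlcNAc (difference 23.7 percentage points, 18.2 to 29.0) and 21.3% with all 4 other targets (difference 29.8 points, 24.2 to 35.0). SPT5 peaks were wider in both of those sets, and the part of width in this difference was not tested. Along the chromosome, OGA was the middle summit at 240 sites (41.2%, 37.2% to 45.2%), TRIM28 at 228 (39.1%) and SPT5 at 108 (18.5%), and 7 had a tie. OGA was in the middle at 41.4% of all OGA peaks with SPT5 and TRIM28, so this order was shared with the rest of the list. The SPT5 summit fell within the OGA peak at 432 sites (74.1%), against 287 of 584 (49.1%) with Pol II. The TRIM28 summit did so at 527 sites (90.4%).

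Among the sites, OGA height went with TRIM28 height and not with SPT5 height. Across the 583 sites Spearman's rho between OGA and TRIM28 fold enrichment was 0.42, and between OGA and SPT5 fold enrichment it was 0.02. TRIM28 and SPT5 fold enrichment had a rho of -0.01. These correlations are across sites that share the same 3 libraries and carry no p. From the lowest to the highest 25% of the sites by OGA fold enrichment, the median TRIM28 fold enrichment went from 3.21 (2.99 to 3.52) to 4.73 (4.47 to 4.97). The SPT5 median was 2.75 (2.56 to 2.96) in the lowest 25% and 2.78 (2.65 to 2.88) in the highest. SPT5 width went the other way, from 501 bp (457 to 624 bp) to 348.5 bp (320 to 390 bp), and the span of the 3 summits narrowed from a median of 107 to 72 bp. A like correlation of OGA with TRIM28 was present at OGA peaks with TRIM28 alone (rho 0.35, 540 peaks) and with SPT5, TRIM28 and Pol II (0.37, 584 peaks). It was -0.02 at the 506 OGA peaks with all 4 other targets.

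Seen from the TRIM28 list, the share of peaks with OGA was higher where TRIM28 was taller and lower where SPT5 was taller. Of 6582 TRIM28 peaks that overlapped SPT5 and neither Pol II nor O-GlcNAc, 574 carried OGA (8.72%, 8.06% to 9.43%). From the lowest to the highest 10% of these peaks by TRIM28 fold enrichment, the share with OGA went from 3.95% (2.71% to 5.72%) to 23.4% (20.3% to 26.7%). Ranked by SPT5 fold enrichment instead, it went from 14.1% (11.7% to 17.0%) to 5.16% (3.72% to 7.12%). The TRIM28 peaks with OGA were also wider, with a median of 436.5 bp (424 to 454 bp) against 303 bp (300 to 306 bp) for those without. Within the widest of 3 equal classes of TRIM28 width, OGA was present at 23.2% (20.8% to 25.8%) of the peaks above the class median of TRIM28 fold enrichment and at 12.1% (10.3% to 14.2%) of the others. In the middle class these shares were 8.04% (6.57% to 9.80%) and 3.55% (2.61% to 4.81%). In the narrowest class they were 3.37% (37 of 1097; 2.46% to 4.61%) and 23 of 1097 (upper bound 3.13%), with intervals that overlapped.

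**Figure D3:**
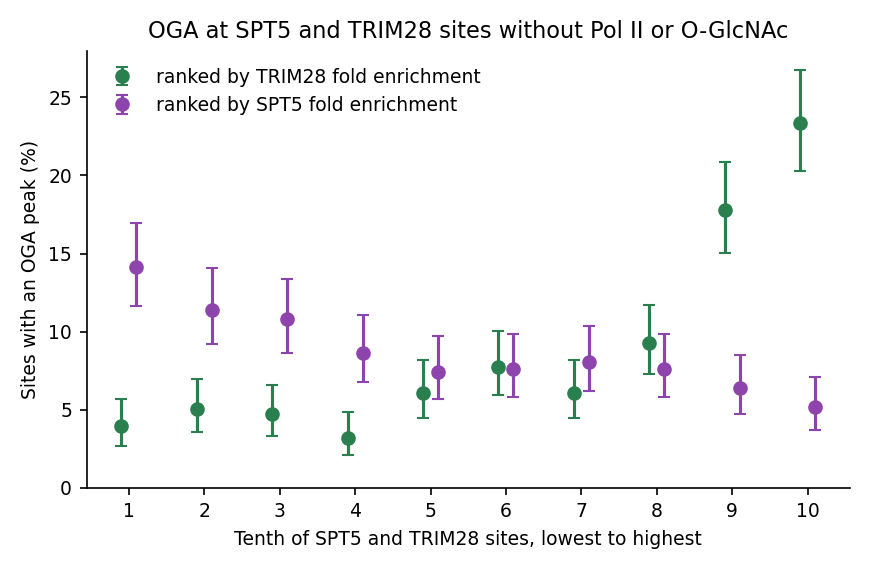
Share of sites with an OGA peak (y axis, percent) among the 6582 TRIM28 peaks with SPT5 and without Pol II or O-GlcNAc, in 10 equal classes from lowest to highest fold enrichment (x axis) of TRIM28 or of SPT5. Points are shares and bars 95% Wilson intervals. By TRIM28 the share went from 3.95% to 23.4%, and by SPT5 from 14.1% to 5.16%.

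Although no Pol II peak was called under the OGA peak, many sites had Pol II in the neighbourhood. The distance from the OGA summit to the nearest Pol II summit ran from 164 bp to 2733 kb, with a median of 19.1 kb (16.2 to 23.0 kb). A Pol II summit lay within 1 kb of 47 sites (8.06%), within 5 kb of 153 (26.2%, 22.8% to 30.0%), within 20 kb of 297 (50.9%, 46.9% to 55.0%) and within 100 kb of 492 (84.4%). Among all 1338 OGA peaks without Pol II, the sites included, 16.7% had a Pol II summit within 5 kb, and among the 755 that were not sites 71 did (9.40%, 7.52% to 11.7%). OGA peaks with TRIM28 alone lay farther off, at a median of 66.6 kb (59.4 to 79.4 kb), with 5.19% within 5 kb (sites minus those peaks 21.1 percentage points, 17.0 to 25.1). SPT5 and TRIM28 sites without OGA, Pol II or O-GlcNAc lay nearer, at a median of 9.05 kb from the TRIM28 summit (8.54 to 9.65 kb), with 38.1% within 5 kb. The 574 such TRIM28 peaks with OGA, measured in the same way, had a median of 20.6 kb (16.9 to 24.9 kb) and 24.4% within 5 kb, 13.7 points lower (difference -13.7, -17.3 to -9.87). The rule removed any overlap with Pol II, so the shortest distances were set by it. The nearest O-GlcNAc summit lay at a median of 64.0 kb (55.4 to 73.2 kb), and 33 sites (5.66%, 4.06% to 7.84%) had one within 5 kb, from a list of 8988 peaks against 19336 for Pol II. The order of the sets was the same as for Pol II, with medians of 110.4 kb at OGA peaks with TRIM28 alone (2.41% within 5 kb) and 47.9 kb at SPT5 and TRIM28 sites without OGA (12.5%).

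**Figure D4:**
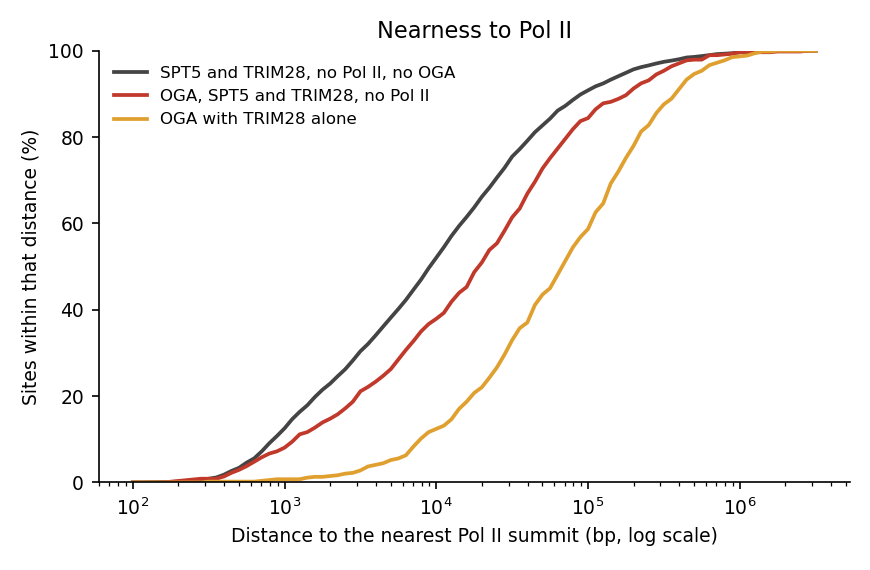
Cumulative share (y axis, percent) of sites by distance to the nearest Pol II summit (x axis, bp, log scale), for the 583 sites, for the 540 OGA peaks with TRIM28 alone and for the 6008 SPT5 and TRIM28 sites without OGA, Pol II or O-GlcNAc (measured from the TRIM28 summit). Within 20 kb lay 297, 119 and 3981 of them.

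SPT5 was higher and wider at the sites near Pol II, while TRIM28 and OGA were somewhat lower there; the SPT5 and TRIM28 intervals below are of medians, and no test was made. At the 47 sites within 1 kb of a Pol II summit the median SPT5 fold enrichment was 4.03 (3.04 to 4.75) and the median SPT5 width 931 bp (577 to 1445 bp). At the 286 sites more than 20 kb away these were 2.62 (2.55 to 2.75) and 377.5 bp (349 to 411 bp). Over the same classes the median TRIM28 fold enrichment was 3.25 (2.96 to 3.60) near Pol II and 4.07 (3.84 to 4.20) far from it, and that of OGA was 2.94 (2.79 to 3.16) and 3.40 (3.24 to 3.54). OGA width was level, at 233 bp near and 233.5 bp far. The OGA and SPT5 summits were a median of 190 bp apart within 1 kb of Pol II (95 to 371 bp) and 58 bp apart beyond 20 kb (48 to 66 bp), while TRIM28 stayed at 40 bp (28 to 67 bp) and 33.5 bp (30 to 38 bp).

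**Figure D5:**
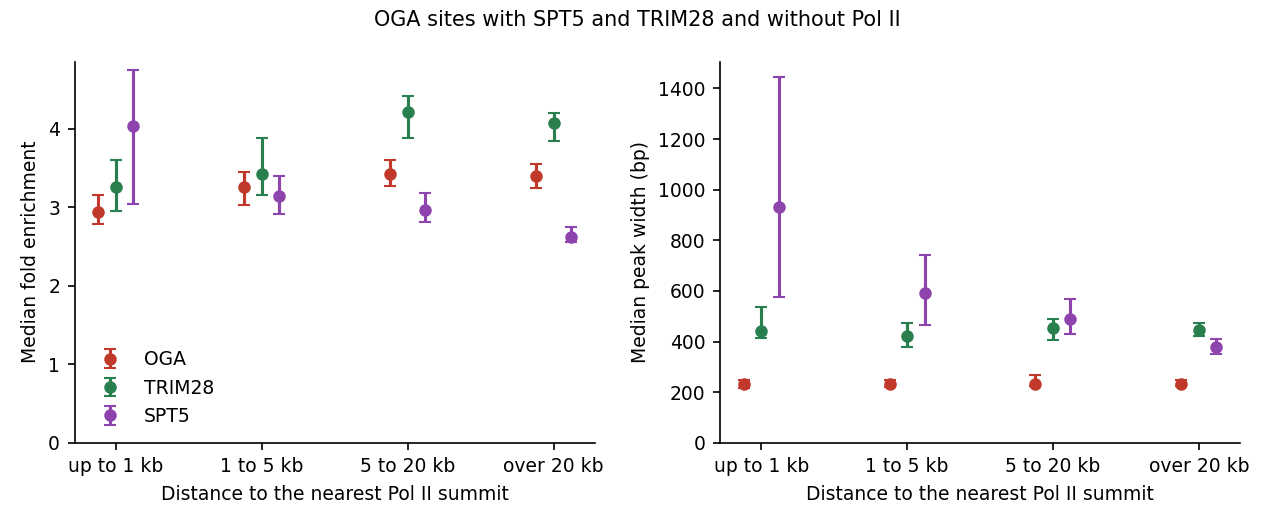
Median fold enrichment (left) and median width in bp (right) of the OGA, TRIM28 and SPT5 peaks at the 583 sites, in 4 classes of distance to the nearest Pol II summit (x axis). Bars are 95% order-statistic intervals of the median. SPT5 went from 4.03 and 931 bp within 1 kb to 2.62 and 377.5 bp beyond 20 kb, and OGA width stayed at 233 to 234 bp.

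Some sites sat on an SPT5 peak that reached Pol II elsewhere. The SPT5 peak of 44 sites (7.55%, 5.67% to 9.98%) also touched a Pol II peak outside the OGA peak, and the TRIM28 peak of 13 sites did so. At these 44 sites SPT5 had a median fold enrichment of 5.78 (4.75 to 6.32) and a median width of 2046 bp (1493 to 3157 bp), against 2.80 (2.73 to 2.86) and 427 bp (401 to 453 bp) at the other 539. The OGA summit was a median of 549 bp from the SPT5 summit and 65.5 bp from the TRIM28 summit there, and TRIM28 was the nearer at 40 of 44. Without these 44 sites TRIM28 was the nearer at 339 of 539 (62.9%).

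Seen along the axis from the OGA summit to the nearest Pol II summit, neither SPT5 nor TRIM28 favoured a side detectably over the whole set. SPT5 lay on the Pol II side at 298 sites and on the far side at 284 (exact sign test over sites, two-sided, p = 0.590 and 0.811 after adjustment), and TRIM28 at 281 and 297 (exact p = 0.533, adjusted 0.811). Within 1 kb of Pol II, SPT5 lay on the Pol II side at 35 of 47 sites (74.5%, 60.5% to 84.7%; exact sign test, p = 0.0011, adjusted 0.0060). The median signed distance of SPT5 toward Pol II over all 47 sites was 125 bp. TRIM28 lay on the Pol II side at 20 of 45 sites with no tie (exact sign test, p = 0.551, adjusted 0.811). Seen from the TRIM28 summit, SPT5 lay toward Pol II at 24 of 33 TRIM28 peaks with OGA and at 67.9% of 751 without OGA in the same class. Of these 47 sites, 25 of the 30 whose SPT5 peak reached Pol II had SPT5 on the Pol II side. Of the other 17, 10 did (58.8%, 36.0% to 78.4%; exact sign test, p = 0.629). The SPT5 peak at those 30 sites overlapped OGA and ran on to a Pol II peak that the rule keeps off OGA. It thus extended toward Pol II by construction, and the even split taken as reference by the sign test is not apt there. The p over all 47 sites cannot be read apart from this. With every list held to a −log10 q of 5 or more, the share was 60.0% (40.7% to 76.6%; exact p = 0.424). Neither smaller set gave a call, but both intervals hold 74.5%, so they cannot show whether the preference went away.

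The Pol II peaks next to the sites were low for the Pol II list. The nearest Pol II peaks of the sites within 5 kb were 145 different peaks, with a median Pol II fold enrichment of 3.28 (3.09 to 3.43) against 4.89 (4.84 to 4.95) over all 19336 Pol II peaks. O-GlcNAc was present at 15 of these 145 (10.3%, 6.37% to 16.4%) and at 40.4% of all Pol II peaks. OGA itself was present at 21 of them (14.5%, 9.67% to 21.1%) and at 6.11% of all Pol II peaks. SPT5 and TRIM28 were present at 95.9% and 64.8% of them, against 95.5% and 60.5% of all. The rule barred overlap with Pol II and O-GlcNAc, so it limits which Pol II peaks could be neighbours, and its part was not tested. Pol II peaks next to other kinds of site without Pol II were not examined, so these traits may not be particular to the sites. In a window of 20 kb to either side of the OGA summit the sites had a median of 4 SPT5 peaks (1 to 36), 4 TRIM28 peaks (1 to 28), 1 Pol II peak (0 to 11) and 1 OGA peak, the site itself (1 to 8). No Pol II peak summit was in this window at 286 sites (49.1%) and no O-GlcNAc summit at 465 (79.8%).

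The sites were spread over all 22 chromosomes. They made up from 7.69% of the OGA peaks on chromosome 21 (2 of 26) to 34.0% on chromosome 10 (34 of 100, 25.5% to 43.7%). The interval of chromosome 10 was the only one of the 22 that did not hold the overall 23.3%. Another of the 583 sites lay within 10 kb of 53 (9.09%), and an OGA peak of another kind within 10 kb of 75 (12.9%). Any OGA neighbour within 10 kb was present at 114 sites (19.6%, 16.5% to 23.0%) and at 16.0% of all OGA peaks (14.6% to 17.5%).

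The highest OGA peak among the sites lay on chromosome 3, 179674385 to 179674657 (hg19; OGA fold enrichment 8.52, −log10 q 50.4), with a TRIM28 fold enrichment of 6.15 and an SPT5 fold enrichment of 2.74. Its 3 summits fell within 28 bp, and the nearest Pol II summit was 304 kb away. The next, on chromosome 12, 133344542 to 133345053 (OGA 7.89, TRIM28 6.86, SPT5 4.66), had Pol II at 2.23 kb. The peak on chromosome 1, 32730408 to 32730811 (OGA 7.68), had lower companions, with TRIM28 at 4.01 and SPT5 at 2.02, and Pol II at 1196 bp. On chromosome 3, 76401290 to 76401488 (OGA 7.60), the OGA and SPT5 summits fell on the same base and TRIM28 15 bp away, with Pol II at 37.7 kb. These high sites were thus found both near to and far from Pol II.

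The remaining 4 of the 8 highest sites also had a TRIM28 peak that ranked higher in its list than the SPT5 peak did in its own. The site on chromosome 14, 100952443 to 100953093 (OGA 6.91), had TRIM28 at 9.38 and Pol II at 110.2 kb. That on chromosome 17, 80464320 to 80464626 (OGA 6.88), had the tallest TRIM28 peak of the 8, at 10.6 (percentile 97.2 of its list), beside an SPT5 peak at percentile 2.64. The site on chromosome 7, 142506525 to 142507025 (OGA 6.88), had TRIM28 at 7.34, SPT5 at 4.25 and Pol II at 251 kb. The site on chromosome 6, 19841575 to 19841817 (OGA 6.54), had TRIM28 at 5.75, SPT5 at 2.88 and Pol II at 2.45 kb. TRIM28 stood above its list's 75th percentile at 7 of these 8 sites, and SPT5 did so at 0 of 8. Over all 583 sites TRIM28 was at or under that percentile at 400 and SPT5 at 526.

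The 3 sites nearest to a Pol II summit lay on chromosome 15, 69760866 to 69761034 (OGA 2.76, Pol II summit at 164 bp), chromosome 20, 62731482 to 62731705 (2.93, at 190 bp) and chromosome 12, 113646173 to 113646344 (2.16, at 210.0 bp). The gaps between the OGA and Pol II peaks there were 35, 42 and 81 bp, and the SPT5 peak on chromosome 20 was 3724 bp wide. The sites farthest from Pol II lay on chromosome 14, 28295470 to 28295678 (OGA 2.88, at 2733 kb), chromosome 5, 164788255 to 164788461 (2.89, at 1634 kb) and chromosome 3, 59437107 to 59437342 (4.24, at 959 kb). OGA was thus about as low at 2 of the 3 farthest sites as at the nearest. At all 3 of the farthest the TRIM28 summit was the nearer to OGA, at 8, 24 and 104 bp, with SPT5 at 41, 90 and 107 bp.

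The widest companions marked sites of other shapes. The widest SPT5 peak spanned 23653 bp on chromosome 1, 8916477 to 8940129 (SPT5 fold enrichment 13.5), around an OGA peak of 237 bp at 8929455 to 8929691 whose summit lay 9070 bp from that of SPT5 and 78 bp from that of TRIM28. The widest TRIM28 peak, of 2053 bp, overlapped the OGA peak on chromosome 7, 73514999 to 73515218, with Pol II at 562 bp. The widest OGA peak, of 943 bp, lay on chromosome 3, 47086857 to 47087799 (OGA 2.93), with the TRIM28 summit at 41 bp and the SPT5 summit at 231 bp.

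At the edge of the rule, the smallest overlaps among the sites were 23 bp with SPT5 on chromosome 1, 4856599 to 4856783, 23 bp with TRIM28 on chromosome 17, 76726711 to 76726885, and 31 bp with SPT5 on chromosome 3, 128952586 to 128952778. Just outside it, the OGA peak on chromosome 10, 132800581 to 132800920 (OGA 8.66, TRIM28 6.85), abutted an SPT5 peak with a gap of 0 bp and no shared base. Those on chromosome 19, 7402734 to 7402962, and chromosome 22, 50645952 to 50646174, missed SPT5 by 7 and 42 bp. On the Pol II side, OGA peaks on chromosome 10, 73409478 to 73409692, and chromosome 9, 998587 to 998865, were left out for 3 bp of Pol II, and 1 on chromosome 12, 6744646 to 6744846, for 5 bp. Their OGA fold enrichments were 4.05, 2.21 and 3.03.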

How the data were processed

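Peak lists of 5 ChIP-seq libraries (Pol II, SPT5, TRIM28, OGA, O-GlcNAc), each 1 group of 1 sample by its title, were used; 2 control libraries (IgG) were not used here. Reads went through bcl2fastq 2.17, Trimmomatic 0.30 and Bowtie2 2.1.0 on hg19, per the submitters' processing notes. Peak caller, control and threshold: not given in the sources used here. Lists deposited by the authors hold each peak's fold enrichment (a ratio to the authors' background), −log10 p, −log10 q and summit position; the deposited score was not used. There is 1 list per sample. Read depth is unknown.

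Overlap needed 1 bp. Each distance was taken to the closest summit in the second list; heights and widths were taken from the peak with the largest overlap. Shares have 95% Wilson intervals, medians order-statistic intervals and differences of shares Newcombe intervals; summit order was tested with two-sided exact sign tests, Benjamini-Hochberg adjusted over 11. Named sites are the 8 highest by OGA, the 3 nearest to and 3 farthest from Pol II, the widest of each target, and those just inside and outside the rule. The sites, comparisons and tests were chosen with earlier results of these data known. The sets of OGA peaks with Pol II, with all other targets and with TRIM28 alone share no peak with the sites; the totals over all OGA peaks, those with SPT5 and TRIM28 and those without Pol II include them. Simulated peaks of known class were recovered in 3000 of 3000 cases, and bedtools 2.31.1 also gave 583 sites. Python 3.11.15, numpy 2.4.6, pandas 2.3.3, scipy 1.17.1 and matplotlib 3.10.9 were used. No genes or sequences are given, since the reference tables follow GRCh38 and no coordinate was converted.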

Additional observations from a re-analysis of the deposited data

Results flagged for a closer look

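Chromosome X was outside the rule, and 13 of its 58 OGA peaks met the overlap conditions; this drew attention because the comparisons left that chromosome out. Of the 6 OGA peaks on chromosome Y, 0 met them.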

How the results depend on the processing

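Of 88 alternative values, 62 kept their side of the threshold or stayed within the interval of the reported value (for numbers of sites, within 1.5 times). Some of these could not change. Using the summit of the most overlapping peak alters only SPT5 and TRIM28 summit positions. The number of sites, OGA height and width, Pol II distances and share touching Pol II were thus fixed there, so the tally overstates stability. The alternatives using the summit of the most overlapping peak, sites with SPT5 no wider than TRIM28, and sites whose SPT5 peak is free of Pol II were chosen after seeing the data. TRIM28 stayed the nearer summit under all 9, at 60.5% to 66.5% (exact sign tests, p = 8.4e-16 to 3.1e-04). Holding every list to a −log10 q of 5 or more left 322 sites with a median OGA fold enrichment of 3.68, a width of 247 bp and SPT5 on the Pol II side at 60.0%; in OGA, SPT5 and TRIM28 only, 293 sites, 3.68, 246 bp, 66.7% (exact p = 0.152) and Pol II at 15.9 kb. These thresholds leave fewer peaks by construction. The setting of 50% overlap of the shorter peak also applied to Pol II and O-GlcNAc. OGA peaks with a smaller overlap with Pol II or O-GlcNAc could therefore count, and 601 sites met it. Of these, 31.1% lay within 5 kb of Pol II and 13.6% had an SPT5 peak touching Pol II. SPT5 lay on the Pol II side at 84.7% of those within 1 kb. Greater nearness to Pol II follows in part from admitting such peaks. With no Pol II or O-GlcNAc peak within 1 kb, Pol II lay at 25.3 kb, with 16.2% within 5 kb and 0.977% touching, and the Pol II side could not be tested because no site was left within 1 kb. Merging within 500 bp gave 80.0 bp between OGA and SPT5 summits and 13.9% touching. The 281 sites with SPT5 no wider than TRIM28 had 3.47, 243 bp, 53 bp to SPT5, Pol II at 30.8 kb, 17.4% within 5 kb, 1.42% touching and 64.3% on the Pol II side (exact p = 0.424). Sites with SPT5 free of Pol II had 20.2% within 5 kb and 58.8% on the Pol II side. Some changes follow from the setting itself. Barring Pol II within 1 kb removes the sites nearest to it, and merging makes peaks wider, so that they touch more readily. Holding the Pol II and O-GlcNAc lists to a −log10 q of 5 also admits OGA peaks whose overlapping peaks there fall below it. The cause of the other changes was not tested, under the thresholds or elsewhere. No paired analysis was possible because each group has 1 sample. Unknown depth limits how far an absent Pol II peak can be read.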

Other observations

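Fold enrichments recurred among the sites: 176 of the 583 (30.2%) shared their OGA value with another site, and there were 488 different values. The narrowest width in the OGA list, 169 bp, was that of 12 sites (2.06%) and of 81 of all 2503 OGA peaks (3.24%).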
